A study of Mus musculus with 5 samples.

Results

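The binding of the retinoid X receptor alpha (RXRα) was examined at the 4 MAF family genes Maf, Maff, Mafg and Mafk in mouse alveolar macrophages (AMs), taken as 4 of 21827 protein-coding genes of the mm10 genome. A peak was given to one of these genes when, of all annotated starts of protein-coding transcripts, a transcription start site (TSS) of that gene lay nearest to the midpoint of the peak, and 14 of 14808 peaks in the 4 deposited lists met this rule. RXRα binding was profiled by HT-ChIPmentation, a chromatin immunoprecipitation in which Tn5 transposase inserts the sequencing adapters, on AMs obtained by bronchoalveolar lavage and FACS from 9-week-old mice. The WT libraries, WT A and WT G, came from mice labelled CD11cCre- Rxrabfl/fl, and the KO libraries, KO A and KO G, from mice labelled CD11cCre+ Rxrabfl/fl. Both genotypes thus carried floxed Rxra and Rxrb, and the KO mice carried in addition a Cre recombinase under Cd11c control, which deletes both genes in CD11c-expressing cells and not in AMs alone. The antibody was directed at RXRα, so that peaks of RXRβ were not measured. Peaks were called over 1 WT input library, which was not analysed on its own here. The labels do not say whether A and G were separate animals or cultures, so a p-value between genotypes measures only the spread between these samples.

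The MAF proteins are basic leucine zipper transcription factors. c-MAF, encoded by Maf, is a large MAF protein with a transactivation domain and takes part in the identity and self-renewal of macrophages. MAFF, MAFG and MAFK are small MAF proteins that lack this domain. They pair with cap'n'collar factors such as NRF2 (Nfe2l2) and NF-E2 p45 (Nfe2), or with BACH1 and BACH2, on antioxidant response elements of genes for glutathione, thioredoxin and iron handling, where the partner decides between activation and repression. RXRα is a nuclear receptor that binds AGGTCA-like elements, mostly as a heterodimer, for example with PPARγ on a direct repeat spaced by 1 base (DR1), with LXR on a repeat spaced by 4 (DR4), or with RAR on a repeat spaced by 5 (DR5).

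The sequences under the leading peaks are shown first, so that the place and the letters of each peak can be read beside its values. They were read from the plus strand of mm10, and capitals mark every match to the searched motifs. The first is the stretch around both WT summits of the Maf region, chr8:115423228-115423414, where the capitals mark a pair of AP-1-type letters, TGANTCA. The second is the stretch around both WT summits of the Maff region in its longest intron, chr15:79350839-79350990, where they mark 1 C/EBP-type match, TTGCNNAA. The third surrounds the WT G summit just downstream of the first Maff TSS, chr15:79346811-79346911, and was chosen after its values were seen because it holds the only DR1 match, with 2 mismatches, among the member peaks. The fourth surrounds the WT G summit at Mafk, chr5:139795319-139795419, and holds no match.

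Maf, region far downstream: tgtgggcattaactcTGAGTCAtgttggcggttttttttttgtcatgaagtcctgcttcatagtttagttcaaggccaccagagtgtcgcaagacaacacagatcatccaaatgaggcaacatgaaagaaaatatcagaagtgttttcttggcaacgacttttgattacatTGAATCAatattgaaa
Maff, intron region: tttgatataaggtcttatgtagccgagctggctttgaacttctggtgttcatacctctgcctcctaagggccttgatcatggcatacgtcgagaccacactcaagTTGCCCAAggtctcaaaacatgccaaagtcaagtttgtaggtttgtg
Maff, WT G peak at the first TSS: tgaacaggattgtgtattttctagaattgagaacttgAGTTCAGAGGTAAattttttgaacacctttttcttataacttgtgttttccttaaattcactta
Mafk, WT G peak: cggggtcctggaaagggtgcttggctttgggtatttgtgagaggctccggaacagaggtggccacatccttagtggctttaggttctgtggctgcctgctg

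The 4 genes differed widely in the number of peaks. WT A held 1 peak for Maf, 2 for Maff, 0 for Mafg and 0 for Mafk, 3 in all. WT G held 1 for Maf, 9 for Maff, 0 for Mafg and 1 for Mafk, 11 in all. KO A and KO G held none for any of the 4 genes. Maff thus accounted for 2 of the 3 peaks of WT A and for 9 of the 11 peaks of WT G, and Mafg had no peak in any list. Among all protein-coding genes, 10.4% were nearest to at least 1 peak of WT A, 16.6% to a peak of WT G, 0.353% to a peak of KO A and 0.861% to a peak of KO G.

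**Figure D1:**
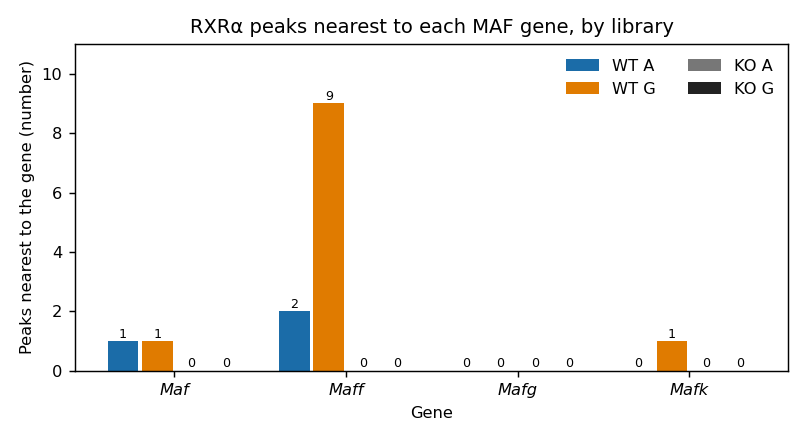
Number of RXRα peaks nearest to each of the 4 MAF genes (vertical axis) in each library (bars). Maff holds 2 and 9 peaks in the WT libraries, Maf 1 in each, Mafk 1 in WT G, Mafg none, and the KO libraries hold none.

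Between genotypes, the mean number of member peaks was 7 ± 5.66 (SD, n = 2) in WT and 0 in both KO libraries. The groups did not overlap, but the WT libraries were far apart, and the two-sided exact permutation p of 0.333 is the smallest that 2 libraries against 2 can give. The KO lists were short as a whole, with 83 peaks in KO A and 208 in KO G against 4751 in WT A and 9766 in WT G. Member peaks made up 0.0631% of WT A (exact 95% binomial interval 0.0130 to 0.184) and 0.113% of WT G (0.0562 to 0.201). At the WT G share, KO A would hold 0.0935 and KO G 0.234 member peaks, that is, fewer than 1 peak, so that at the WT share lists of this length would seldom hold a peak of these genes. A count of 0 allows, at 3 counts of the total, a share of up to 3.61% for KO A and 1.44% for KO G, and the exact upper bounds are 4.35% and 1.76%, for counting error only.

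Maf, on chromosome 8, had a single region in both WT lists, chr8:115423064-115423513, which lies 284 kb downstream of the nearer Maf TSS in intergenic sequence. In WT A the peak was 288 bp wide with a fold enrichment over the input of 5.93 and a −log10 q of 5.22, where q is the p-value of the peak caller adjusted over its tests. In WT G it was 450 bp wide with a fold enrichment of 7.09 and a −log10 q of 6.88. Ranks here and below are counted from the highest −log10 q, with ties given the best rank. The Maf peak ranked at 23.5% of the WT G list and at 63.6% of the WT A list. These lists are of unequal length (9766 and 4751 peaks), and their ranks are not compared. The summits were 86 bp apart, against a median of 96.0 bp (quartiles 45.0 and 168) over all 3423 regions in both WT lists. The AP-1-type letters lay 35 bp before the WT A summit and 35 bp after the WT G summit, 1 match in each window.

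The distance of the Maf region is long even for these data. All shared regions lay at a median of 15.7 kb from their nearest protein-coding TSS, 8.68% lay over 100 kb away and 44 of them, 1.29%, over 250 kb away. Maf stands alone in a wide stretch of the chromosome, with Wwox 1267 kb away on one side and Dynlrb2 797 kb away on the other, so that its TSSs are the nearest ones over 1.03 Mb, a span that 1.48% of protein-coding genes reach. In this stretch there were 0.968 shared regions per Mb, against 1.26 per Mb over the genome. When genes of every type were used, the nearest gene was 4930488N15Rik, whose TSS put the region at −162 kb (minus for upstream), and Maf lost the region. The closest peak of each KO list was 9095 kb from a Maf TSS.

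Maff, on chromosome 15, was the member with the most binding. Its 2 shared regions were reached or passed by 3.29% of protein-coding genes, its 2 peaks in WT A by 4.58% and its 9 peaks in WT G by 0.838%, or 183 genes. Its neighbourhood is not wide, at 38.1 kb against a median gene of 47.5 kb, and it held 52.6 shared regions per Mb and 237 WT G peaks per Mb, against 3.58 WT G peaks per Mb over the genome. The peaks of WT G covered 3966 bp, or 27.7%, of the 14.3 kb from the first to the last of them, and those of WT A 336 bp.

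The Maff region with the highest enrichment, chr15:79350775-79351480, lies in the intron 3.06 kb downstream of the third TSS. In WT A the peak there was 129 bp wide with a fold enrichment of 6.32 and a −log10 q of 6.16. In WT G it was 706 bp wide with a fold enrichment of 9.03 and a −log10 q of 10.5, and it ranked at 9.12% of the WT G list. Both summits fell within 51 bp of each other, and the C/EBP-type letters began 4 bp after the WT A summit, outside the window of the stronger WT G summit. By the −log10 q summed over both lists, this region ranked at 41.1% of the shared regions.

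The other shared Maff region, chr15:79360652-79360912, lies 12.7 kb downstream of the third TSS and 1.58 kb beyond the end of Maff, in an exon of Tmem184b. A Maff TSS is the nearest because the Tmem184b TSS is farther off, at 54.9 kb from the third Maff TSS. The WT A peak had a fold enrichment of 5.15 and a −log10 q of 3.43, the WT G peak 4.51 and 2.63, and the summits were 9 bp apart. This is among the weakest shared regions, since it ranked at 99.1% of them. Whether the signal belongs to Maff or to Tmem184b cannot be told from position.

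Binding over the Maff promoters was seen in WT G and not in WT A. Maff has 3 annotated TSSs, at positions 79346621, 79347520 and 79348064, and each of them lay inside a peak of WT G. The peak over the first TSS, chr15:79346595-79347218, had a fold enrichment of 8.38 and a −log10 q of 9.26, with its summit 240 bp downstream of the TSS. The peak over the second, chr15:79347295-79347615, had a fold enrichment of 7.74 and a −log10 q of 8.04, with its summit at −100 bp. The peak over the third, chr15:79347950-79348411, had a fold enrichment of 6.45 and a −log10 q of 5.73, with its summit 192 bp downstream. These lay in the stronger part of the WT G list, at ranks of 12.6%, 16.8% and 32.9%. WT A, KO A and KO G had no peak over any of the 3 TSSs.

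Peaks over a TSS were rare in both WT lists. A protein-coding TSS lay inside 5.24% of the WT G peaks and 2.13% of the WT A peaks, and 2.41% of protein-coding genes had a WT G peak over at least 1 of their TSSs. Of the 512 WT G peaks over a TSS, 148 (28.9%) overlapped a peak of WT A, so the lack of a WT A peak at the Maff promoters is shared by most such peaks. A count of genes by the number of separate WT G peaks over their TSSs, made after the Maff values were seen, gave 13 genes with 2 or more and 1 gene, Maff, with 3 or more (0.00458% of 21827, of which 4678 have 3 or more TSSs). The peak over the first Maff TSS ends at 79347218 and that over the second begins at 79347295. They lie closer together than the 215 bp of the shortest WT G peak, so the count depends on how this list separates neighbouring peaks.

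The 200 bases upstream of the first and of the second TSS are shown because these promoters lie at WT G peaks, and the capitals again mark matches. They run over chr15:79346421-79346620 and chr15:79347320-79347519 in the direction of transcription and overlap no annotated exon.

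Maff, upstream of the first TSS: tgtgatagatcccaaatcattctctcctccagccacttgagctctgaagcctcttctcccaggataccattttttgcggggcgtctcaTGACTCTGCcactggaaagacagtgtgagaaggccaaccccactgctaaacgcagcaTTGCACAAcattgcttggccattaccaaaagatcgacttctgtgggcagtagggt
Maff, upstream of the second TSS: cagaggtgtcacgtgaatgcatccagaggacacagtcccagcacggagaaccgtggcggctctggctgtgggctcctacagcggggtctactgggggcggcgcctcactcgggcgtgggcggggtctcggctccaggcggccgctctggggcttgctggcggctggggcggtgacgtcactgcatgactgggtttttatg

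The first stretch had a GC content of 50.5% and held an antioxidant response element core, TGACNNNGC, that begins at −112 from the TSS, and a C/EBP-type match that begins at −55. The core was found in 8.77% and the C/EBP letters in 6.71% of all 41409 stretches of this length upstream of protein-coding TSSs. The other stretch, with a GC content of 67.5%, held none of the searched motifs. The median over all such stretches was 56.5% (quartiles 47.5 and 65.5), so the second stretch lies above the upper quartile. The summit windows of WT G peaks had a median GC content of 46.5%.

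The remaining WT G peaks inside Maff lay in its introns. The peak 5.22 kb downstream of the third TSS had a fold enrichment of 5.13 and a −log10 q of 3.87, and the local background of the peak caller was higher there than at the other member peaks of WT G, at 0.948 against 0.551 fragments. The peak at 6.89 kb was the widest, at 878 bp, with a fold enrichment of 6.45. The pair at 8.74 and 9.11 kb, on either side of an exon, had a fold enrichment of 4.51 each and a −log10 q of 2.63, near the weak end of the list. The peak at 9.11 kb held the small MAF element TGCTGA on the minus strand, 11 bp after its summit, and it was the only member window with one. That element was found in 7.14% of the windows of all WT G peaks.

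**Figure D2:**
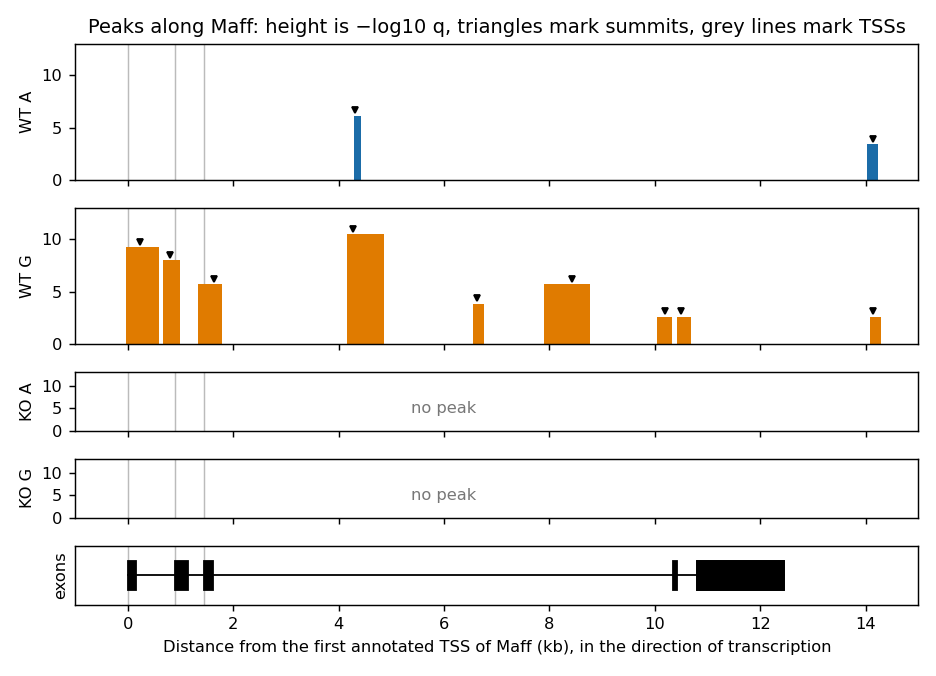
Peaks along Maff in the 4 libraries, by the distance from its first TSS (horizontal axis, kb) and the −log10 q of each peak (vertical axis), with summits as triangles, the 3 TSSs as grey lines and the exons at the bottom. WT G holds 9 peaks over 14.3 kb including 1 over each TSS, WT A holds 2 of these places, and the KO libraries hold no peak.

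Beyond the neighbourhood of Maff, the upstream gene Pla2g6 (a phospholipase gene whose TSS lies 18.4 kb from the first Maff TSS) held a further 2 WT A peaks and 5 WT G peaks within 25 kb of a Maff TSS. The strongest of these, 4.38 kb into Pla2g6, had a fold enrichment of 9.07 (WT A) and 10.3 (WT G), above every peak given to Maff itself. Both lists thus placed their highest peak of the wider Maff locus closer to Pla2g6.

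Mafk, on chromosome 5, had 1 peak in WT G, chr5:139795259-139795483, in the intron between its 2 TSSs and 2.14 kb upstream of the second. It was 225 bp wide with a fold enrichment of 5.80 and a −log10 q of 4.64, and it ranked at 47.0% of the WT G list. WT A had no peak there, and its closest peak was 308 kb from a Mafk TSS. Mafk therefore had no region in both WT lists.

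Mafg, on chromosome 11, had no peak. Its neighbourhood is short, at 11.1 kb, which 91.1% of genes reach, because Sirt7 and Pycr1 start 5.13 and 10.1 kb away, so that few peaks could be given to it. The closest peaks were nevertheless far off, at 276 kb in WT A and 135 kb in WT G. In both WT lists no peak thus lay within 25 kb of any Mafg TSS, whatever its nearest gene.

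In all, 2 of the 4 genes, Maf and Maff, had a region in both WT lists, against 8.86% of protein-coding genes. The order of the genes by WT peaks was Maff, Maf, Mafk and Mafg, and the neighbours in this order after Maff differ by a single peak or less in each list. The 4 neighbourhoods together held 2.72 shared regions per Mb against 1.26 over the genome, of which 2 of 3 lie at Maff. None of the 3 shared regions was at a promoter, that is, from 1 kb before a TSS to 100 bp past it, against 7.30% of all shared regions. None overlapped a KO peak (3 of 3, exact 95% binomial interval 29.2 to 100%), and neither did 94.1% of all shared regions.

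The WT lists were compared at the member peaks. All 3 WT A peaks overlapped a WT G peak, where 83.2% of the WT A list did. Of the 11 WT G peaks 3 overlapped a WT A peak, where 36.1% of the WT G list did. Of the 7 Maff peaks found in WT G alone, 5 had a −log10 q above that of the weaker shared Maff region, 2.63. That is a low mark, since peaks at this value ranked at 88.9% of the WT G list. The values of the 7 ran from 2.63 to 9.26, below the 10.5 of the shared Maff intron region. Over the whole WT G list, the 6239 peaks found there alone had a median −log10 q of 4.64 and the 3527 shared ones 7.83.

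**Figure D3:**
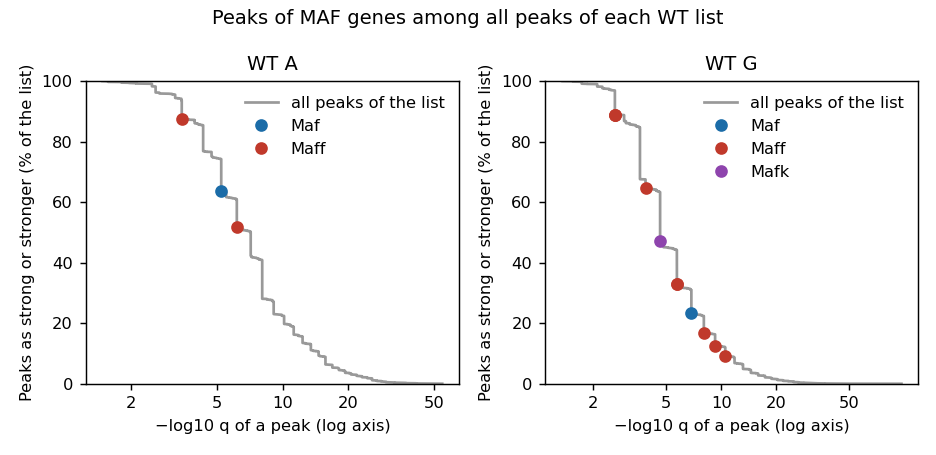
Share of all peaks of a WT list (vertical axis, %) that reach a given −log10 q (horizontal axis, log scale), with the peaks of Maf, Maff and Mafk as points, for WT A and WT G. Member peaks are placed by rank, with ties given the best rank, and lie from 51.9 to 87.5% in WT A and from 9.12 to 88.9% in WT G.

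The fold enrichment and the p-value of a peak depend together on the fragments at its summit and on the expected background, so both could be solved for each peak. The member peaks rested on few fragments. The Maf region held 14 in WT A (exact 95% Poisson interval 7.65 to 23.5) and 10 in WT G (4.80 to 18.4). The Maff intron region held 15 (8.40 to 24.7) and 13 (6.92 to 22.2), and the region 12.7 kb downstream 12 and 6. The 3 peaks over the Maff TSSs held 12, 11 and 9 fragments, and the Mafk peak 8 (3.45 to 15.8). These intervals, which cover counting error only, overlap for every pair of member peaks within a library, so the order of the peaks by strength is not resolved.

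The background behind the lists differed. The peak caller scaled WT A down by a factor of 0.884, and without this scaling the expected background over the genome was 1.42 fragments for WT A and 0.551 for WT G. The KO libraries lay between, at 0.966 (KO A) and 0.936 (KO G). The lowest background was thus that of WT G, which had the most peaks. At the same enrichment over this background, the 12 fragments over the first Maff TSS in WT G correspond to 30.9 in WT A (16.0 to 54.0 with the counting interval), where no peak was listed and the lowest peak of the list had 10. At the Maff intron region 13 fragments correspond to 33.5 (17.8 to 57.3), where 15 (8.40 to 24.7) were found, and at Maf 10 correspond to 25.8 (12.4 to 47.4), where 14 (7.65 to 23.5) were found. By this scaling the intervals overlap at both regions. The background holds both the number of fragments and the length they are extended to. When it was divided by the shortest peak of each list, taken as that length, WT A was 4.78-fold above WT G in place of 2.58-fold, and the 12 fragments over the first Maff TSS correspond to 57.3. By that scaling the Maff intron region corresponds to 62.1 (33.1 to 106), which lies above the interval of WT A, 8.40 to 24.7, and Maf to 47.8 (22.9 to 87.8), which meets the upper end of the interval of WT A, 7.65 to 23.5. Whether either region was less enriched in WT A thus depends on the scaling or is at the edge of the counting error. The fragments in WT A over those in WT G were 1.40 at Maf, 1.15 and 2.0 at the Maff regions, and 1.60 (quartiles 1.33 and 1.91) as the median of all shared regions. The part of this difference between the WT libraries in the WT G peaks at the Maff promoters was not tested.

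For the KO libraries the same scaling depended on the WT library it started from and on the way of scaling. Scaled from WT G by the background, the member peaks correspond to 10.5 to 22.8 fragments for KO A and to between 10.2 and 22.1 for KO G, where the lowest peak of the lists had 10 and 8 fragments. The counting intervals reach down to 3.86 for KO A and 3.74 for KO G, below those lowest peaks. Those of the Maff intron peak, 12.1 to 39.0 for KO A and 11.8 to 37.8 for KO G, lie above them. So do those of the peak over the first Maff TSS, 10.9 to 36.7 and 10.5 to 35.6. For KO G, those of the peak over the second TSS (9.33 to 33.4) and of Maf (8.15 to 31.2) lie above as well. The remaining intervals span the lowest listed peak. Scaled from WT A, the member peaks correspond to 8.17 to 10.2 for KO A and to between 7.91 and 9.89 for KO G, around that lowest peak. The counting interval of the Maff intron region in WT A, scaled to KO A, runs from 5.71 to 16.8 and so lies on both sides of it. With the shortest peak taken into account, the member peaks of WT G correspond to 16.4 to 35.5 fragments for KO A and to between 21.5 and 46.5 for KO G, and those of WT A to 6.86 to 8.58 for KO A and to between 9.0 and 11.2 for KO G. By this scaling the counting intervals of all 3 WT A peaks and of the weakest WT G peaks span the lowest listed peak of each KO list, while that of the Maff intron region in WT G, at 18.9 to 60.7 for KO A, lies above it.

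**Figure D4:**
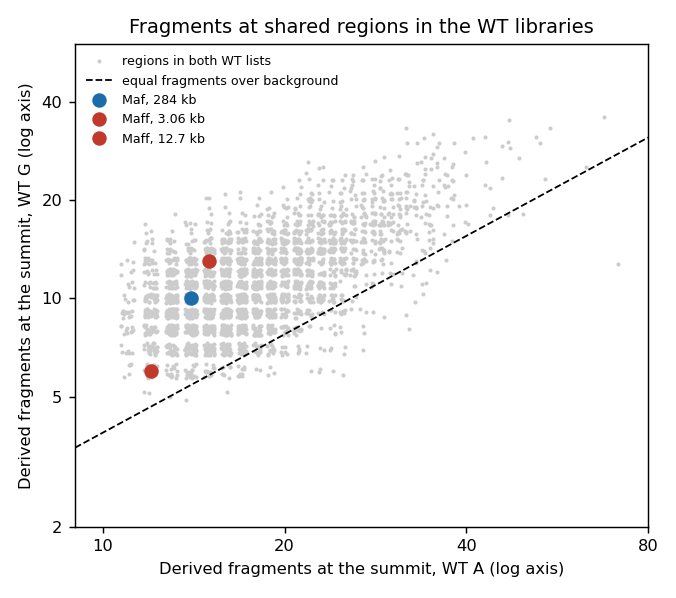
Derived fragments at the summit in WT A (horizontal axis) and WT G (vertical axis), both on log scales, for the 3423 regions in both WT lists (grey, jittered) and the 3 of Maf and Maff (coloured), with a dashed line where both libraries would have equal fragments over their background. The member regions, at 14 and 10, 15 and 13, and 12 and 6 fragments, lie above the line.

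Motifs were searched on both strands in the 50 bp on each side of the summit, DR1 (AGGTCANAGGTCA), DR4 (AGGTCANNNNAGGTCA) and DR5 (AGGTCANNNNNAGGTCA) with up to 2 mismatches and the others exactly. At the stronger summit of the 3 shared member regions no DR1 was found, where 6.34% of all shared regions held one, and no DR4 (1.90%), DR5 (2.57%), single AGGTCA (15.2%) or PU.1-type GAGGAAGT (4.38%). Nor did any of the 3 hold the C/EBP-type letters (11%), the small MAF element (7.27%) or the antioxidant response element core (4.62%) there, the C/EBP match of the Maff intron region being near its WT A summit only. The AP-1-type letters were found in 1 of the 3, that of Maf, against 7.51%. Among WT G peaks, the DR1 at the first Maff TSS lay 13 bp before the summit, on the plus strand at chr15:79346848-79346860, and 3.34% of all WT G peaks held such a match. The peak over the third Maff TSS held a DR4 with 2 mismatches, at chr15:79348235-79348250, against 1.34% of all WT G peaks. With so few windows these counts are a description, and a window without a match says only that these letters were not in it.

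The genes that work with the small MAF proteins were read in the same way. Of 6 partner genes, 3 had a region in both WT lists, namely Nfe2, Nfe2l2 and Bach2, and Nfe2l1, Nfe2l3 and Bach1 did not. Keap1, whose product holds NRF2 in check, had no peak in any list. Of 12 genes known to be controlled through antioxidant response elements, 5 had a shared region, namely Txnrd1, Slc7a11, Fth1, Ftl1 and Prdx1, and Hmox1, Nqo1, Gclc, Gclm, Srxn1, Me1 and G6pdx had no peak in any list. Together these were 8 of 19 genes, or 42.1%, beside the 8.86% of all protein-coding genes given above.

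The 3 of these genes with the highest −log10 q of a shared region, taking the higher of the WT lists, were targets. Fth1, the heavy chain of the iron store ferritin, had 7 shared regions, the strongest at chr19:9954029-9955342, at −25.9 kb from its TSS, with a −log10 q of 7.14 for WT A and 21.8 for WT G. Prdx1, a peroxide-reducing enzyme, had 1 region at −12.5 kb with values of 8.06 and 14.5. Slc7a11, the cystine transporter that feeds glutathione synthesis, had 2 regions, the strongest at −164 kb with values of 13.5 and 13.2. In all 3 the values in both WT lists were above those of the strongest MAF gene region, in the Maff intron, at 6.16 and 10.5. Among the partners, Bach2 reached 9.11 and 13.2, and among the targets Txnrd1 had the low values 5.22 and 4.64. Ftl1 had 11.3 in WT A and 4.64 in WT G. In WT A alone the values of Ftl1 and Bach2 were thus above those of Prdx1 and Fth1. Of the 19 genes only Nfe2 had a KO peak, 1 in KO G.

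Genes whose pattern over the 4 libraries was most like that of a MAF gene were found by the distance between log2(1 + summed fold enrichment) values. Maff was closest to Spdye4c, with 2 and 11 WT peaks at a distance of 0.141, and to Zfp217, with 2 and 9 peaks at 0.142. Maf was tied at a distance of 0 with 6 genes, among them C3ar1 and 2510009E07Rik, and Mafk with 271, since genes with 1 peak often hold the same value. Mafg, with no peak, has no such pattern.

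The lists hold no RNA, so neither the cell type nor the loss of Rxra can be checked in them. As a description, 7 of 8 AM marker genes had a region in both WT lists (Fabp4 had peaks without overlap), and 0 of 4 neutrophil, 0 of 4 lymphocyte and 0 of 4 alveolar epithelial genes did. The neutrophil gene S100a8 had 1 peak, in WT G.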

How the data were processed

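RXRα HT-ChIPmentation was performed on AMs of both genotypes, with 2 libraries per genotype and 1 input. The authors trimmed adapters with Cutadapt, aligned reads to mm10 with Bowtie2, removed duplicates and low-quality alignments, and called peaks in each library against the input with MACS3 at a q threshold of 0.05, without pooling. The deposited lists give each peak's position and summit, the fold enrichment, a ratio to the local background with a pseudocount of 1, and the p- and q-values as −log10; the deposited score is 10 times the −log10 q. They hold no read counts, so the study's count model could not be applied.

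TSSs of protein-coding transcripts were taken from GENCODE M21. WT peaks sharing at least 1 bp were merged. Fragments at a summit and the background were solved from fold enrichment and p, and every peak was matched within 0.012 in −log10 p; the steps were tested on simulated data. Intervals were exact (95%), and genotypes were compared with an exact permutation test. The 4 genes, every peak nearest to them and the 3 listed genes with the highest −log10 q in either WT list were named. The genes and lists were chosen with earlier results of these data known. Alternatives covered the q threshold, the overlap, the length of WT G, the gene assignment, the motif window and single libraries. The sequence upstream of the third Maff TSS is not reported here. Python 3.11.15, numpy 2.4.6 and scipy 1.17.1 were used.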

Additional observations from a re-analysis of the deposited data

How the results depend on the processing

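Each of the 9 results was recomputed under some of the 17 alternatives, not always under all that could apply. Of the 55 values so obtained, 49 stayed within 1.5 times the reported one. The shared regions per Mb and the partner and target genes were recomputed at the stricter q thresholds only. The WT minus KO difference kept its sign in each of its own alternatives. The WT minus KO difference in member peaks of 7 became 4 at a −log10 q of at least 5 and 4.50 when WT G was cut to its strongest peaks, as many as in WT A, and it ranged from 3 without WT G to 11 without WT A, so it rests on the WT library used. Counting every peak within 25 kb of a member TSS, an alternative chosen after seeing the data, gave 9.50. The genes with a region in both WT lists fell from 2 to 1 when peaks had to lie within 100 kb of the TSS and when genes of every type were used, since both remove the Maf region by construction. With the replicate block, the letters A and G taken as pairs, the mean difference was 7 with an exact sign-flip p of 0.5, the smallest that 2 pairs allow. The labels do not say whether equal letters mark a shared batch. The presence of peaks in WT A against WT G and in KO A against KO G correlated at −0.07 over the 10466 merged regions. With only 83 peaks in KO A and 208 in KO G, this correlation cannot decide whether the letters are pairs. The member peaks rested on 6 to 15 fragments each, and whether absence from a list is absence of binding was not tested.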
